A study of Rattus norvegicus with 9 samples.

Results

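The genes described here are 10 members of the RGS family, the regulators of G protein signalling, in the left ventricle of the rat: Rgs2, Rgs3, Rgs4, Rgs5, Rgs6, Rgs10, Rgs12, Rgs14, Rgs16 and Rgs19. They were taken by gene symbol from a table of 19294 genes with values, in which 19 genes carry an RGS name. They were chosen by gene name with the FPKM values and group differences of these same samples in view, in all 3 comparisons, so their levels and differences are given as a description. Whether a member passed the threshold of the fit over all genes is stated only to describe it, without a p-value, and is not independent evidence of a difference. All 10 passed the filter that a gene was tested only with a mean of at least 1 FPKM over the 9 samples. RNA was sequenced from the left ventricle of 3 groups with 3 samples each. WKY are Wistar Kyoto rats, the normotensive strain commonly set beside SHR. SHR are spontaneously hypertensive rats, inbred rats that become hypertensive with age. SHR_OMT are SHR given oxymatrine, an alkaloid of Sophora roots. Both SHR groups share the strain, and the labels give no age, sex, dose, duration or time of collection for any group. Whether each replicate is its own animal is not stated, so p-values here set group differences only against the spread of these samples, which may be technical.

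A G protein is switched on when a receptor makes its alpha subunit take up GTP, and it switches itself off by hydrolysing that GTP. RGS proteins speed this hydrolysis, so they shorten the signal from the receptor. Most act on alpha subunits of the Gi or Gq kind, which in the heart carry signals from muscarinic, adenosine, angiotensin, endothelin and alpha-adrenergic receptors. By sequence the family falls into subfamilies. Rgs2, Rgs3, Rgs4, Rgs5 and Rgs16 belong to the R4 subfamily, Rgs6 to the R7 subfamily, Rgs10, Rgs12 and Rgs14 to the R12 subfamily and Rgs19 to the RZ subfamily.

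The 3 genes called lower in SHR than in WKY were Rgs16, Rgs3 and Rgs4, and the 250 bases before the annotated start of each are shown because they are the members called in the same direction there. The sequence before the start of Rgs5, the gene next to Rgs4 in RefSeq's order of protein-coding genes, is shown beside them because Rgs5 was not called in any comparison. The sequences are RefSeq's for assembly GRCr8, 5′ to 3′ along the gene, whereas the submitters' processing notes name build Rnor_6.0. Capitals mark the letters CCAAT or TATAAA on either strand.
Rgs16 (chr13:68437870-68438119, plus strand): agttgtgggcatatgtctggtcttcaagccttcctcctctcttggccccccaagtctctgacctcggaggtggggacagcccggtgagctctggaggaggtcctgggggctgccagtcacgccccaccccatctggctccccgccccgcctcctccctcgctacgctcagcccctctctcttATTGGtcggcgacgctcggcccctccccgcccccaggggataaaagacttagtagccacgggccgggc
Rgs3 (chr5:81093801-81094050, plus strand): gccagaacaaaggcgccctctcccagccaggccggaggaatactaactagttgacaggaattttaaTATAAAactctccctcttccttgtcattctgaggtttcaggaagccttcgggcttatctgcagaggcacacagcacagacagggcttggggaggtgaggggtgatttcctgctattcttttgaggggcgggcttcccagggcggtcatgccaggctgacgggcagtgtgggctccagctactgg
Rgs4 (chr13:84475885-84476134, minus strand): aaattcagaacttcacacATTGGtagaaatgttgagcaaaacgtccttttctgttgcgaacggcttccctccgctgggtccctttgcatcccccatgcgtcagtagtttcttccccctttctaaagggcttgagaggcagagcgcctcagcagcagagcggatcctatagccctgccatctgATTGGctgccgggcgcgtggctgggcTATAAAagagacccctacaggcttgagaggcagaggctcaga
Rgs5 (chr13:84380827-84381076, plus strand): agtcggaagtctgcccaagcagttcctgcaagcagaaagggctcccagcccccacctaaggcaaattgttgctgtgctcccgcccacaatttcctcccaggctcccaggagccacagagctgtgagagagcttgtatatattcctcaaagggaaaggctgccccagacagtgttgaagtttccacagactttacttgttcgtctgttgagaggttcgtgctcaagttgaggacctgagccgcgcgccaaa

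Rgs16 and Rgs4 each held CCAAT in its reverse form, ATTGG, with the first letter 68 bases before the start, and Rgs4 held another 232 bases before it. The letters CCAAT or ATTGG were also found before the start of Rgs2, so 3 of the 10 members had them, against 34.3% of 27457 RefSeq promoters of the same length. TATAAA stood 42 bases before the start of Rgs4 and 184 bases before that of Rgs3, and TATAAA or TTTATA was found in 13.1% of all promoters. The E-box CACGTG, the letters that clock activators are known to bind, was found before the start of Rgs19 only among the members, and in 5.79% of all promoters. Neither the cyclic AMP response element TGACGTCA (1.7% of promoters) nor the D-box TTATGTAA, which reads TTACATAA on the other strand (0.816%), was found in any member. The windows of the members had 54.4% to 77.6% G and C, the most in Rgs10, against a median of 52% over all promoters. A match of letters is a description and not a binding site.

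The values analysed were FPKM, fragments scaled by gene length and by library size, so that levels of different genes can be set side by side. The FPKM sum lay between 587526 and 606633 in the 9 libraries and read depth is unknown. Libraries of a group correlated across genes at 0.988 to 0.991 on the log2 scale and those of different groups at 0.973 to 0.990. The tissue label was checked on 8 markers of ventricular muscle, which summed to 31689 to 36047 FPKM in every library, with none at 0. All log2 differences are of log2(FPKM + 1), and the added 1 makes the change of low genes look smaller than it is. A gene was called at an adjusted p below 0.05 by limma over all 12451 tested genes, and "rose" or "fell" is written only of called genes. In tissue RNA, fewer cells of a type and less RNA per cell cannot be told apart.

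Rgs5 was by far the most abundant of the 10. Its mean over the 9 libraries was 220 FPKM, against 29.4 for Rgs3, the next, and the ranges of these 2 did not overlap. Rgs4 followed at 18.5 FPKM, Rgs10 at 15.7, Rgs6 at 12.8 and Rgs2 at 12.6, and each of these neighbours in the order overlapped in range with the next. Rgs3 also overlapped Rgs4 in range but was above it in 9 of 9 libraries. Rgs16 at 5.92, Rgs19 at 5.69 and Rgs12 at 5.58 FPKM lay close together with overlapping ranges, below Rgs2 in every library. Rgs14, at 1.15 FPKM, was below all the others and close to the filter. Rgs5 made up 61.6% to 65.9% of the members' summed FPKM in the WKY libraries, 67.6% to 70.6% in SHR and 67.6% to 69.7% in SHR_OMT. The other 9 members together summed to 118 to 132 FPKM in WKY, 87.7 to 98.8 in SHR and 94.4 to 110 in SHR_OMT, so that both SHR groups lay below WKY.

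**Figure D1:**
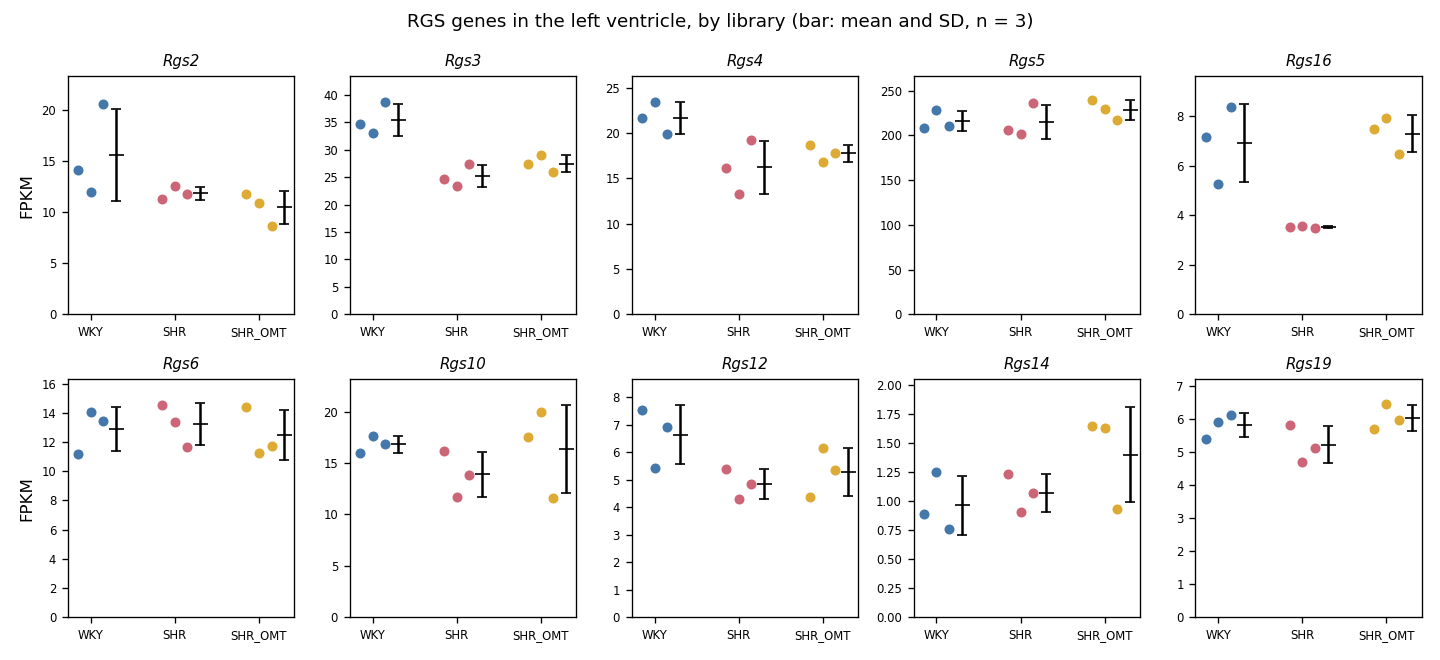
FPKM of the 10 RGS genes in each library, by group (points), with the group mean and SD (bars, n = 3); each panel has its own axis from 0. The 3 SHR points of Rgs16, between 3.49 and 3.58 FPKM, lie below all WKY and SHR_OMT points, and Rgs3 is lower in both SHR groups than in WKY.

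Against WKY, SHR ventricles held less Rgs16, Rgs3 and Rgs4, and none of the 10 was called higher. The 3 calls of 10 compare with 33.9% of all tested genes called in either direction and 23.1% called lower in this comparison, 10.8% being called higher. The groups did not overlap in 4 of 10, Rgs12 being the other, all lower in SHR, where they did not in 48.1% of all tested genes and lay lower in 33.0%. The members' median log2 difference was -0.30, beside a median of -0.084 over all tested genes. In SHR_OMT against SHR, Rgs16 alone rose, where 0.241% of all tested genes were called, 0.153% higher and 0.0883% lower. It was also the 1 member whose groups did not overlap there, against 17.2% of all tested genes, 13.2% higher and 3.99% lower. Set against WKY, SHR_OMT had lower Rgs3 as its 1 call, where 24.9% of genes were called, 10.2% higher and 14.6% lower. There 3 members, Rgs2, Rgs3 and Rgs4, did not overlap and lay lower, against 42.7% of all tested genes, 17.0% higher and 25.7% lower. The members' median was 0.13 in SHR_OMT against SHR and -0.06 in SHR_OMT against WKY, beside 0.039 and -0.043 over all tested genes. The comparisons share the SHR or the WKY libraries and are not independent of each other. The members were chosen with these comparisons known, so nothing is read from the counts.

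**Figure D2:**
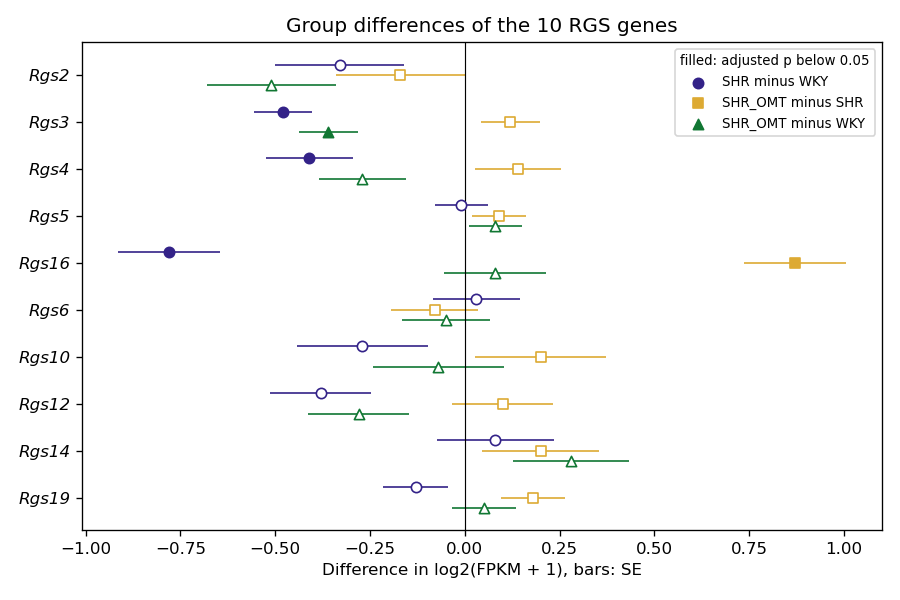
Differences in log2(FPKM + 1) of the 10 RGS genes in the 3 comparisons, with SE; filled symbols have an adjusted p below 0.05 in limma. Rgs16 has the largest difference in both the first comparison (-0.78) and the second (0.87) and lies near 0 in SHR_OMT against WKY (0.08).

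Among the R4 members, Rgs16 is a regulator of Gi and Gq that in the mouse brain clock is known for a daily rhythm. Its values were 7.16, 5.24 and 8.36 FPKM in WKY, 3.54, 3.58 and 3.49 in SHR, and 7.48, 7.92 and 6.48 in SHR_OMT. Every SHR library lay below every library of the other groups, and WKY and SHR_OMT overlapped. The SHR mean was 3.54 ± 0.0451 FPKM (SD, n = 3), 0.511 times the WKY mean of 6.92 ± 1.57. The log2 difference between them was -0.78 (SE 0.134), called here and in 17 of 17 alternatives. The SHR_OMT mean was 7.29 ± 0.738 FPKM, 2.06 times the SHR mean, with a log2 difference of 0.87 (SE 0.134). That call was lost in 12 of 17 alternatives, while the log2 difference stayed between 0.81 and 1.02. It was lost with both other scalings (0.83 and 0.81) and without WKY replicate 1, any 1 SHR library or any 1 SHR_OMT library. Against WKY the SHR_OMT difference was 0.08, not called. Both differences that involve SHR rest on the same 3 SHR libraries, whose spread was the smallest of any member in any group, with a coefficient of variation of 1.27%. The authors' deposited table, made from the same libraries, gave log2 ratios of -0.65 for SHR over WKY and of 0.80 for SHR_OMT over SHR.

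Genes of the circadian clock differed between the same groups. Of 16 tested clock genes 6 rose and 2 fell in SHR against WKY, 7 rose and 2 fell in SHR_OMT against SHR, and 10 rose and 5 fell in SHR_OMT against WKY. The clock genes summed to 173 to 195 FPKM in WKY, 201 to 212 in SHR and 327 to 368 in SHR_OMT, a sum led by Nr1d1, Dbp and Tef over genes that peak at different times of day. Of the listed clock genes only Per2, Cry2 and Hlf had their lowest mean in SHR, as Rgs16 did. In all the others the SHR mean lay between those of WKY and SHR_OMT. Per2, a repressor of the clock, had 3.62, 4.53 and 5.36 FPKM in WKY, 3.71, 3.17 and 3.22 in SHR and 6.97, 7.99 and 7.12 in SHR_OMT, and it rose in SHR_OMT against SHR. The means of Cry2, another repressor, were 15.5, 14.1 and 18.3 FPKM in WKY, SHR and SHR_OMT, and those of Hlf, below the filter, 0.593, 0.357 and 0.847. Per2 and Cry2 also rose in SHR_OMT against WKY, by 0.61 and 0.23, where Rgs16 differed by 0.08 and was not called. The part of the clock in the Rgs16 values was not tested, and the time of collection is not given in the sources used here. Genes of the early response, which the handling of tissue can switch on, were summed as well. They had 271 to 335 FPKM in WKY, 228 to 280 in SHR and 232 to 446 in SHR_OMT. Of 13 tested, 0 were called by limma in either comparison with SHR, where 0 and 3 had an unadjusted p below 0.05. Their differences were above 0 in 1 of 13 in SHR against WKY (median -0.24). In SHR_OMT against SHR they were above 0 in 11 of 13 (median 0.32). The medians over all tested genes were -0.084 and 0.039. Against WKY, SHR_OMT had 1 call, of Junb, which rose by 0.55. The part of early response genes in the Rgs16 pattern was not tested. The genes whose pattern was most like that of Rgs16 over the 9 samples were Kif13a, a kinesin motor (r = 0.963), and Rap2b, a small GTPase (r = 0.959). Rap2b had 3.71, 3.03 and 4.25 FPKM in WKY, 3.04, 2.72 and 2.76 in SHR and 3.92, 4.13 and 3.74 in SHR_OMT.

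Rgs3 acts on Gi and Gq alpha subunits. It had 34.61, 33.02 and 38.72 FPKM in WKY, 24.74, 23.37 and 27.42 in SHR and 27.35, 29.00 and 26.00 in SHR_OMT. Both SHR groups lay wholly below WKY and overlapped each other. The means were 35.4 ± 2.94, 25.2 ± 2.06 and 27.4 ± 1.5 FPKM, so that SHR had 0.71 and SHR_OMT 0.774 times the WKY mean. The log2 differences from WKY were -0.48 in SHR and -0.36 in SHR_OMT (SE 0.077 each), and both calls held in 17 of 17 alternatives. SHR_OMT and SHR differed by 0.12, not called. The authors' deposited table gave a log2 ratio of -0.43 for SHR over WKY. The genes most like Rgs3 in pattern were Bmp1, a protease of the matrix (r = 0.986), and Itpr2, an inositol trisphosphate receptor of the Gq pathway (r = 0.985). Itpr2 had 4.49, 4.48 and 5.46 FPKM in WKY, 3.02, 2.83 and 3.43 in SHR and 3.58, 3.57 and 2.96 in SHR_OMT.

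Rgs4, a regulator of Gi and Gq known from mouse heart for curbing muscarinic slowing of the sinus node, had 21.64, 23.37 and 19.87 FPKM in WKY. It had 16.11, 13.31 and 19.16 in SHR and 18.70, 16.74 and 17.74 in SHR_OMT. All libraries of both SHR groups lay below all WKY libraries, by little in the case of SHR replicate 3. The log2 difference of SHR from WKY was -0.41 (SE 0.114), from means of 21.6 ± 1.75 and 16.2 ± 2.93 FPKM. This call was lost in 5 of 17 alternatives, with median-of-ratios scaling (-0.32) and without WKY replicate 1 (-0.41), WKY replicate 2 (-0.35), SHR replicate 1 (-0.41) or SHR replicate 2 (-0.28). In SHR_OMT against WKY the difference was -0.27, not called, and it was called with only the groups compared and without SHR replicate 2. Its log2 ratio of SHR over WKY in the authors' deposited table was -0.31. Closest in pattern were Il16, a cytokine precursor (r = 0.978), and Gng12, a G protein gamma subunit (r = 0.971).

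Cell type markers beside these 3 genes were not level. Of 9 endothelial markers 8 fell in SHR and 7 in SHR_OMT against WKY, and they summed to 761 to 893 FPKM in WKY, 570 to 629 in SHR and 626 to 648 in SHR_OMT, with none at 0. With median-of-ratios scaling 6 of the 9 fell in SHR. Their part in the lower Rgs3, Rgs4 and Rgs16 was not tested. In SHR_OMT against SHR 0 of the 9 were called by limma, with 2 at an unadjusted p below 0.05, and the ranges of their sums overlapped.

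Rgs5 is the RGS gene of pericytes and of arterial smooth muscle, and is used as a marker of pericytes. It had 208.07, 228.25 and 210.86 FPKM in WKY, 205.66, 201.53 and 236.53 in SHR and 239.37, 229.46 and 216.81 in SHR_OMT. The groups overlapped in all 3 comparisons, and the log2 differences were -0.01, 0.09 and 0.08 (SE 0.07 each), none called in any alternative. Of 12 pericyte and smooth muscle markers, 1 (Abcc9) rose and 1 (Mcam) fell in SHR against WKY and the others were not called. In SHR_OMT against WKY, Abcc9 rose by 0.34 (adjusted p = 0.00309 in limma) as the only call. In SHR_OMT against SHR limma called 0 of the 12, with 2 at an unadjusted p below 0.05. The pericyte receptor gene Pdgfrb had 33.26, 35.52 and 31.93 FPKM in WKY, 31.80, 26.86 and 32.59 in SHR and 31.10, 33.97 and 30.92 in SHR_OMT, with overlapping groups. Smooth muscle genes were uneven between WKY libraries: Acta2, the smooth muscle actin, had 72.87 and 85.55 FPKM in replicates 1 and 2 and 39.47 in replicate 3, where Rgs5 differed little. Over the deviations of the 9 samples from their group means, Rgs5 and its neighbour Rgs4 had an r of 0.80, and over the plain values an r of 0.40. The closest genes in pattern to Rgs5 were Tmed3, of the secretory pathway (r = 0.945), and Lpxn, an adhesion adaptor (r = 0.920).

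Rgs2 acts mainly on Gq and is known for its part in blood pressure, since mice without it are hypertensive. It had 14.09, 11.99 and 20.60 FPKM in WKY, 11.27, 12.53 and 11.72 in SHR and 11.81, 10.93 and 8.66 in SHR_OMT. WKY replicate 3 stood well above the other 8 libraries, SHR overlapped WKY, and SHR_OMT lay just below it. The log2 differences were -0.33 for SHR and -0.51 for SHR_OMT against WKY (SE 0.170 each), not called. Without WKY replicate 2, the lowest of its group, both were called, at -0.49 and -0.66, and the SHR_OMT difference was also called at a filter of at least 5 FPKM. Without WKY replicate 3, the highest, the SHR difference was -0.13, not called. Over all alternatives the SHR difference lay between -0.49 and -0.13 and the SHR_OMT difference between -0.66 and -0.30. SHR_OMT differed from SHR by -0.17, not called. WKY replicate 3 was the highest library of its group in Rgs2, Rgs3 and Rgs16 alike, and over deviations from the group means Rgs2 and Rgs16 had an r of 0.89 in the 9 samples. Rgs2 was most like Rph3al, a gene of vesicle release (r = 0.936), and Gmds, an enzyme of fucose synthesis (r = 0.931).

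Rgs6, the R7 member, works bound to the beta subunit Gnb5 and is known from mouse heart for ending the muscarinic signal to atrial potassium channels. It had 11.16, 14.03 and 13.47 FPKM in WKY, 14.55, 13.36 and 11.69 in SHR and 14.40, 11.25 and 11.73 in SHR_OMT. The groups overlapped in all comparisons, with log2 differences of 0.03, -0.08 and -0.05 (SE 0.115 each), none called in any alternative. Its pattern had weaker likenesses than any other member's, at r = 0.881 with Unc119b and 0.875 with RragB. Of its atrial pathway, the muscarinic receptor gene Chrm2 rose in SHR, from 9.52 ± 0.887 to 15 ± 3.26 FPKM (a log2 change of 0.59, adjusted p = 0.00713 in limma), and in SHR_OMT, to 17.2 ± 0.168 (0.80, adjusted p = 0.00234). The channel genes Kcnj3 and Kcnj5 rose in SHR_OMT against WKY by 0.53 and 0.58, calls that were lost in 1 and 5 of 17 alternatives, each with 1 library left out. The Kcnj3 call was lost without SHR_OMT replicate 1, and the Kcnj5 call without any 1 WKY library or SHR_OMT replicate 1 or 3. Atrial tissue in the samples was checked on 6 atrial markers: the ranges of the myosin light chain gene Myl7 were 1.49 to 9.33 FPKM in WKY, 0.92 to 1.29 in SHR and 0.71 to 2.85 in SHR_OMT, and it alone fell in SHR. Sln was at 0 in SHR replicate 1 and Bmp10 in SHR_OMT replicate 3, and the 6 markers summed to 1264 to 2630 FPKM in WKY, 975 to 4461 in SHR and 976 to 1927 in SHR_OMT, nearly all of it Nppa. Their part in the Chrm2 and channel values was not tested.

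Among the R12 members, Rgs12 and Rgs14 carry a GoLoco motif that holds Gi alpha subunits in the GDP form, and Rgs10 is a small protein abundant in white blood cells. Rgs12 had 7.53, 5.44 and 6.91 FPKM in WKY, 5.37, 4.28 and 4.84 in SHR and 4.38, 6.14 and 5.34 in SHR_OMT. SHR lay below WKY by a narrow margin (5.44 against 5.37 FPKM at the nearest) without overlap, and SHR_OMT overlapped both. The log2 difference of SHR from WKY was -0.38 (SE 0.133), not called, and was called in 5 of 17 alternatives, among them the fit without WKY replicate 2 (-0.50). Closest to Rgs12 in pattern were Slc22a15 (r = 0.968) and Ndst2, an enzyme of heparan sulphate synthesis (r = 0.955).

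Rgs10 had 15.94, 17.61 and 16.85 FPKM in WKY, 16.13, 11.70 and 13.82 in SHR and 17.50, 19.91 and 11.61 in SHR_OMT. Rgs14 had 0.89, 1.25 and 0.76 FPKM in WKY, 1.24, 0.91 and 1.07 in SHR and 1.65, 1.63 and 0.93 in SHR_OMT. In both genes SHR_OMT replicates 1 and 2 were above the third, the groups overlapped in all comparisons, and neither was called in any alternative that tested it. Their log2 differences in SHR against WKY were -0.27 (SE 0.172) and 0.08 (SE 0.154), and in SHR_OMT against SHR 0.20 each. Of 7 tested leukocyte markers 1, Nkg7, fell in SHR against WKY and limma called 0 in either comparison with SHR_OMT, with 2 in each at an unadjusted p below 0.05. They split the SHR_OMT libraries in the same way: 11 markers summed to 42.0 FPKM in the lowest SHR_OMT library and 84.7 in the highest, beside 45.6 to 57.7 in WKY and 43.5 to 61.2 in SHR. The macrophage marker Cd68 had 22.12, 15.52 and 7.31 FPKM in SHR_OMT, and the pan-leukocyte gene Ptprc 7.79, 7.45 and 4.09. Cd79a, a B cell marker, was the only one of the 11 at 0 in a library, SHR replicate 2. The genes most like Rgs14 in pattern were Il10ra (r = 0.974), the interleukin 10 receptor, and Ptpn6 (r = 0.972), a phosphatase of blood cells, and those most like Rgs10 were Gas7 (r = 0.968) and Exosc7 (r = 0.945). The part of leukocyte RNA in the Rgs10 and Rgs14 values was not tested.

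**Figure D3:**
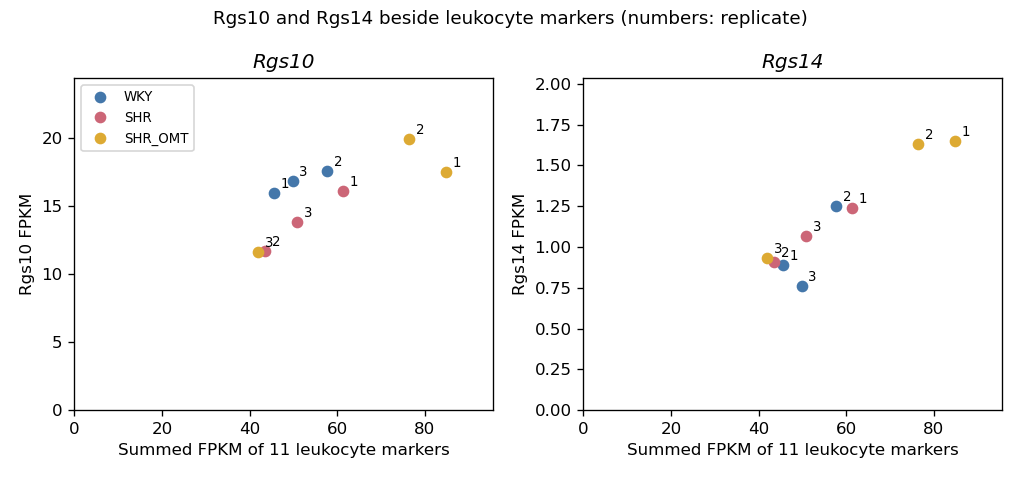
FPKM of Rgs10 (left) and Rgs14 (right) against the summed FPKM of 11 leukocyte markers in the 9 libraries, coloured by group and numbered by replicate. SHR_OMT replicates 1 and 2 lie at the right of both panels and replicate 3 at the lower left, at 11.61 FPKM of Rgs10 and 0.93 of Rgs14.

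Rgs19, of the RZ subfamily, is a membrane-bound regulator of Gi alpha subunits. It had 5.4, 5.91 and 6.11 FPKM in WKY, 5.81, 4.70 and 5.13 in SHR and 5.69, 6.46 and 5.96 in SHR_OMT. The groups overlapped throughout, and the log2 differences were -0.13, 0.18 and 0.05 (SE 0.085 each), not called in any alternative. Its closest genes in pattern were Slc35a1, the transporter of sialic acid precursors (r = 0.963), and Flywch2 (r = 0.919). Each r given for likeness is over the same 9 libraries, which fall into 3 groups, and is a description chosen as the highest among all tested genes.

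The 9 other RGS-named genes and the anchor proteins Rgs7bp and Rgs9bp had means of at most 4.18 FPKM, that of Rgs18. Of these 11 only Rgs1, Rgs18 and Rgs7bp passed the filter. Rgs18 and Rgs7bp (1.24 FPKM) had higher means than the member Rgs14 (1.15 FPKM). Rgs7bp, which holds R7 proteins at the membrane, rose from WKY values of 0.99, 0.77 and 0.96 FPKM to 1.09, 1.61 and 1.72 in SHR (a log2 change of 0.37, adjusted p = 0.0419 in limma), and its call was lost in 10 of 16 alternatives. Rgs18, a gene of platelets and blood cells, had 2.21, 3.80 and 3.19 FPKM in WKY, 7.29, 2.66 and 5.61 in SHR and 4.45, 5.07 and 3.35 in SHR_OMT, not called. Rgs1, of lymphocytes, had 0.57 to 0.84 FPKM in WKY and 0.86 to 2.16 in SHR, not called. Rgs20, an RZ gene below the filter, measured 0.18, 0.35 and 0.24 FPKM in the WKY samples, against 0.04, 0.05 and 0 in SHR, and was listed at 0 in all SHR_OMT libraries. Rgs17 had 0.54 to 1.3 FPKM over the 9 libraries, Rgs22 0.19 to 0.63 and Rgs7 0.10 to 0.24, and Rgs8, Rgs9, Rgs13 and Rgs9bp were listed at 0 in several libraries.

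The alpha subunit list covered all classes, including Gs and G12, on which the RGS proteins described here are not known mainly to act. Calls over the list went in both directions, and within a class they did so only among Gi genes. Of 12 tested, 2 rose and 4 fell in SHR against WKY, where 10.8% of all tested genes were called higher and 23.1% lower. Gna12, a subunit of the G12 class, rose from 54.1 ± 0.906 to 76.5 ± 0.52 FPKM (a log2 change of 0.49, adjusted p = 4.3e-05 in limma). Gnao1, a Gi-class subunit, rose from 7.4 ± 0.518 to 13.2 ± 1.43 FPKM (0.75, adjusted p = 0.000326). Gnas, the stimulatory subunit, fell from 474 ± 23.8 to 397 ± 5.38 FPKM (-0.25, adjusted p = 0.00346), and Gnai1, an inhibitory subunit, from 4.38 ± 0.679 to 2.74 ± 0.328 (-0.52, adjusted p = 0.00737). The other 2 that fell were Gnai3 and Gnat2 (-0.26 and -0.44), of which neither was called with median-of-ratios scaling. In SHR_OMT against WKY 2 of the 12 rose and 4 fell again, with log2 changes of 0.41 for Gna12, 0.43 for Gnao1 and -0.25 for Gnas. Those of Gnai1, Gnai3 and Gnaq, a Gq-class subunit, were -0.39, -0.20 and -0.31. Of these, Gnaq and Gnai3 were not called with either other scaling and Gnai1 not with quantile normalization. Gna11, also of the Gq class, had a mean of 16.9 FPKM over the 9 libraries, against 7.75 for Gnaq. It was not called in any comparison (0.10 in SHR_OMT against WKY).

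Of 13 beta and gamma subunits none rose and 6 fell in SHR against WKY, and 2 of the 13 fell in SHR_OMT. Gnb4 fell from 5.01 ± 0.297 to 3.08 ± 0.182 FPKM (a log2 change of -0.56, adjusted p = 0.00182 in limma), and Gng11 from 65.2 ± 2.76 to 47.8 ± 6.41 (-0.45, adjusted p = 0.00465). The others that fell in SHR were Gnb2 and Gng12 (-0.26 each), Gnb1 (-0.25) and Gnb3 (-0.21). With median-of-ratios scaling only Gnb2, Gnb4 and Gng11 fell and Gnb5, the partner of Rgs6, rose. Of 11 receptor kinases, arrestins and other regulators, Gpsm1, another protein with GoLoco motifs, rose from 120 ± 2.97 to 157 ± 3.85 FPKM in SHR (a log2 change of 0.39, adjusted p = 0.000384) and was at 147 ± 6.88 in SHR_OMT (0.30 against WKY, adjusted p = 0.00236). Grk5, a receptor kinase, fell by 0.32 in SHR_OMT against WKY (adjusted p = 0.0193) and Ric8b, a chaperone of Gs alpha subunits, rose by 0.20 (adjusted p = 0.0334). The Grk5 call was lost in 4 of 17 alternatives, without WKY replicate 1 or 3 or SHR_OMT replicate 1 or 3. The Ric8b call was lost in 7 of 17, with only the groups compared, with the replicate block and without WKY replicate 1 or 3 or any 1 SHR_OMT library.

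Of 22 receptors coupled to Gi or Gq, 6 rose and 4 fell in SHR against WKY. The alpha-1 adrenergic receptor genes parted: Adra1a rose by 0.60 (adjusted p = 0.00339 in limma) and Adra1b by 0.26 (adjusted p = 0.0136), while Adra1d changed by -0.63 (adjusted p = 0.00227). The prostaglandin F receptor gene Ptgfr rose from 1.09 ± 0.811 to 13.3 ± 4.77 FPKM. F2rl1, a protease-activated receptor, changed by -0.71 (adjusted p = 0.00279), and the endothelin receptor gene Ednra by -0.45 (adjusted p = 0.0108). Chrm2, the adenosine receptor gene Adora1 and the sphingosine phosphate receptor gene S1pr3 were the others that rose and Aplnr, the apelin receptor gene, the other that fell. Against WKY, SHR_OMT had 6 receptors that rose and 1, F2rl1, that fell. The calls of Adra1a, Chrm2, Ptgfr and F2rl1 held in all their alternatives in both comparisons with WKY.

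Among 24 effectors 3 rose and 8 fell in SHR against WKY. Adcy5, an adenylyl cyclase of heart muscle and a target of Gi, rose from 26.5 ± 1.68 to 42.3 ± 4.27 FPKM (a log2 change of 0.65, adjusted p = 0.000463 in limma) and was at 43.8 ± 3.09 in SHR_OMT (0.70 against WKY, adjusted p = 0.000466). Adcy6, another cyclase, had means of 32.2, 30.2 and 27.6 FPKM in WKY, SHR and SHR_OMT and was not called in any comparison. Adcy4 fell from 15.2 ± 1.48 to 11.2 ± 0.297 FPKM (-0.41, adjusted p = 0.00229). The protein kinase C genes Prkca and Prkce, which act below Gq, rose by 0.47 and 0.43, and Itpr2 changed by -0.50 (adjusted p = 0.00496), as did Arhgef1, an exchange factor with an RGS-like domain, by -0.25 (adjusted p = 0.00351). With median-of-ratios scaling 3 rose and 4 fell, Adcy3, Adcy4, Arhgef1 and Itpr2. Against WKY, 5 effectors rose and 5 fell in SHR_OMT.

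Over the 85 tested pathway genes outside the 10 members, 13 rose and 22 fell in SHR against WKY, and 15 rose and 13 fell in SHR_OMT against WKY. These are 15.3% and 25.9% of the pathway genes in SHR, beside 10.8% higher and 23.1% lower over all tested genes, and 17.6% and 15.3% in SHR_OMT, beside 10.2% and 14.6%. With median-of-ratios scaling the pathway counts were 15 and 13, and 16 and 10. In SHR_OMT against SHR limma called 0 of the 85, as it did in all 17 alternatives, where 10 had an unadjusted p below 0.05, so that Rgs16 was the 1 gene called there among these 85 and the 10 members. Whether Rgs16 differed from the other pathway genes in this response was not tested.

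**Figure D4:**
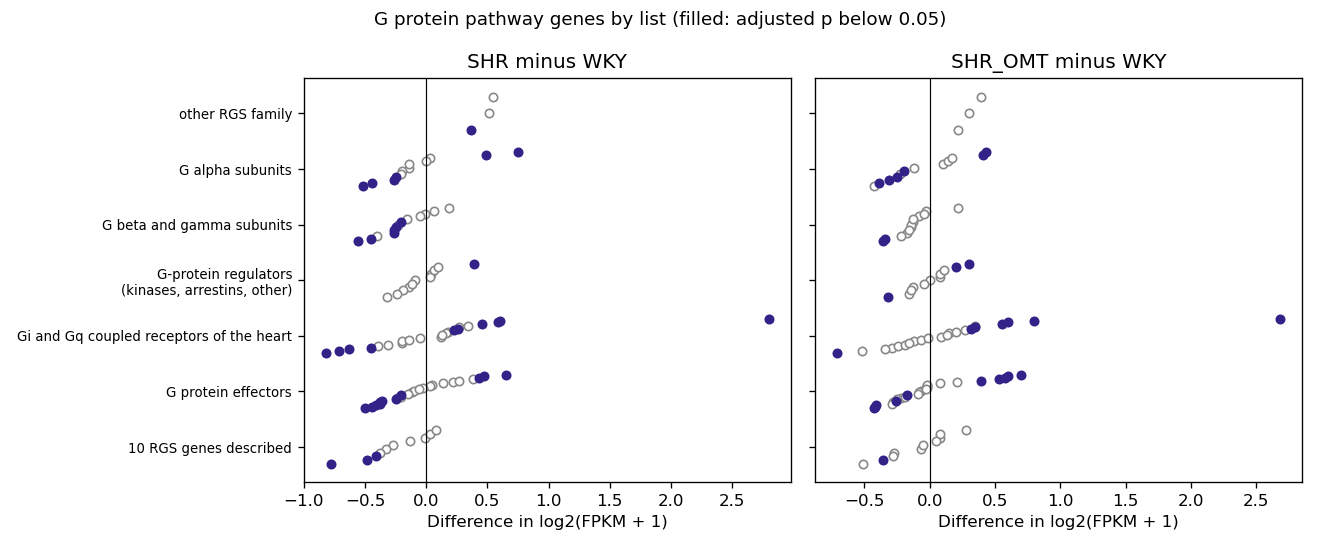
Differences in log2(FPKM + 1) of tested G protein pathway genes by list, and of the 10 RGS genes, in SHR (left) and SHR_OMT (right) against WKY; each point is a gene, spread vertically for legibility, and filled points have an adjusted p below 0.05 in limma. Receptor and effector genes lie on both sides of 0, and Ptgfr stands apart at 2.80 and 2.68.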

How the data were processed

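Per the labels' protocols, left ventricular RNA came from a Trizol extraction, and KAPA RNA HyperPrep libraries were sequenced on BGISEQ-500. Tools named in the submitters' processing notes, without role or order, are Bowtie2, RSEM 1.3.1 and DESeq2 1.4.5, with build Rnor_6.0. The authors' deposited table gives FPKM per gene and sample. Per the file headers it also holds a log2 ratio and, in the same deposited table, a q-value, each for 2 comparisons (SHR with WKY, SHR_OMT with SHR); the q-values are not printed because the members were chosen on these samples. How those ratios were computed is not stated.

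Of 22864 rows, 19294 had values. For 27 genes the symbol had been written as a date and was restored through the Gene ID. Columns were assigned by library name. Read counts were not used here. Low values were checked for steps of 1 read: 36.5% of 1446 ratios came within 0.1 of whole (20% under even spacing), so reads were not recovered. Depth is unknown and no counting interval is given.

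Genes with a mean of at least 1 FPKM (12451) were fitted by limma 3.58.1 (R 4.3.3) on log2(FPKM + 1), in 1 fit over the 3 groups with a trend of variance on level, tested two-sided and adjusted by Benjamini-Hochberg at 0.05. The fit was tested on simulated data with independent normal noise and no difference in scaling between groups, so that test does not bear on scaling. The members and lists were chosen with earlier results of these data known. Named were all members, the other RGS genes, up to 4 called genes of each pathway list with the smallest p (all where 5 or fewer were called), the 2 genes most like each member by Pearson r, and markers; further pathway genes and markers, Myl7, Cd68, Ptprc, Pdgfrb, Acta2, Per2, Cry2 and Hlf among them, were named after their values were seen. Alternatives were another pseudocount, other filters and scalings, a fit of only the groups compared, one with no trend, a replicate block and each sample left out. Promoters came from RefSeq tables of GRCr8, in which all 10 members were found by Gene ID.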

Additional observations from a re-analysis of the deposited data

How the results depend on the processing

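In SHR against WKY, 3 members were called, 2 to 4 when 1 library was left out, and all 17 alternatives gave 2 to 4. In SHR_OMT against SHR the 1 call, of Rgs16, became 0 without a filter on low values, with median-of-ratios scaling, with quantile normalization, without the variance trend and with the replicate block, and 0 to 1 members were called when 1 library was left out. In SHR_OMT against WKY the 1 call became 2 at a mean FPKM of at least 5 (Rgs2 added) and with only the groups compared (Rgs4 added), and 1 to 2 when 1 library was left out, 2 being without WKY replicate 2 (Rgs2) or SHR replicate 2 (Rgs4). No member changed sign in a call. The cause of these shifts was not tested. Without a filter both the number of genes adjusted over and the fitted variance trend changed.

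Over all tested genes, 4215 were called in SHR against WKY (2868 to 4226 with 1 library left out), 30 in SHR_OMT against SHR (6 to 33) and 3095 in SHR_OMT against WKY (1896 to 3038, the lowest without WKY replicate 1, and 2023 without SHR_OMT replicate 1). The 30 became 12 without a filter, 19 with only the groups compared, 17 without the variance trend and 14 with the replicate block. It fell to 13 without WKY replicate 1, to 19, 7 and 17 without SHR replicate 1, 2 or 3, and to 6, 16 and 13 without SHR_OMT replicate 1, 2 or 3. Called genes were higher in 31.9% of cases in the first comparison, and in 53.2% with median-of-ratios scaling and 50.9% with quantile normalization. The shares were 63.3%, 43.5% and 52.4% in the second comparison and 41.2%, 54.5% and 50.6% in the third. Pathway calls went from 35 to 23 in SHR against WKY at a mean FPKM of at least 5, where 53 genes were tested, and to 25 to 35 with 1 library left out. In SHR_OMT against WKY the 28 became 15 to 30, with 18 without WKY replicate 1, 17 without WKY replicate 3, 15 without SHR_OMT replicate 1 and 17 without SHR_OMT replicate 3, and in SHR_OMT against SHR they were 0 throughout.

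Samples that share a replicate number did not deviate together: in 9 such pairs the correlation of deviations from the group means was -0.109 to 0.028, and 0 of 9 were over 0.1. With the replicate block 3, 0 and 1 members were called in the 3 comparisons. Groups of 3 limit what can be called, and Rgs14, at about 1 FPKM, rests on low values whose depth is unknown.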
